A study of Mus musculus with 36 samples.

Results

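Molecular chaperones and the proteins that regulate them were followed as a group of 38 listed genes in the mouse striatum after morphine. A gene was taken as measured where a probe set assigned to it alone had a linear intensity above 99.7 on at least 9 of 36 arrays. This held for 36 of the 38 genes, with 89 of their 98 probe sets, out of 13224 genes and 27212 probe sets that passed the same filter. Hsp90ab1 and Hsf1 had no probe set in the probe table used and were not analysed here. Values are those of the brightest detected probe set of each gene, and 28 of the 36 genes had other detected probe sets.

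The study asked how single and repeated morphine doses act on gene expression in inbred strains that differ in their response to opioids. Male mice of 8 to 10 weeks from 4 strains (SWR/J, DBA/2J, C57BL/6J and 129P3/J) were given chronic morphine, acute morphine or saline, which makes 12 groups of 3 arrays. Each array held pooled striatal RNA of 3 mice (9 mice per group), and p-values measure the spread between such pools. Every mouse, the saline controls included, was injected 3 times a day for 4 days and killed 4 hours after a last injection on day 5. The tissue was the rostral caudate/putamen together with the nucleus accumbens. Chronic groups received daily doses of morphine that climbed over the first 4 days through 10, 20 and 40 to again 40 mg/kg per injection, and a last dose of 40 mg/kg. Acute groups received saline until a single dose of 20 mg/kg on the last day. RNA of such pools cannot tell fewer cells of a type from less RNA per cell.

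Chaperones bind unfolded stretches of other proteins and help them to reach or keep their folded state. Hsp70 proteins do this in cycles of ATP binding and hydrolysis: J proteins bring the substrate and start hydrolysis, and Hsp110 proteins and BAG proteins release the nucleotide. Hsp90 acts later, on signalling proteins such as steroid receptors and kinases, while separate sets of chaperones work in mitochondria and in the endoplasmic reticulum. Many of these genes are switched on by heat shock factor 1 through heat shock elements, and those of the endoplasmic reticulum by the unfolded protein response through endoplasmic reticulum stress elements.

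Both kinds of element stand in the start regions of several of these genes, and the stretches of some of the carriers are shown. RefSeq promoter windows of 250 bases before to 50 bases after a transcription start (build GRCm38.p6) were given for 32 of the 36 measured genes. Both strands were searched for 3 kinds of motif. The endoplasmic reticulum stress element, CCAAT followed after 9 bases by CCACG, was present for 5 genes, Calr, Canx, Dnajc3, Hsp90b1 and Hspa5, which is 15.6% of those with a window, against 0.137% of all 27025 genes. A heat shock element of 3 units, which is GAANNTTC or TTCNNGAA followed after any 2 bases by a further GAA or TTC in alternation, was present for Chordc1, Dnajb6, Hspd1, Hspe1 and Hsph1, also 15.6%, against 0.662% of all genes. The shorter element of 2 units, GAANNTTC or TTCNNGAA, which the longer one contains, was present for 11 genes (34.4%) against 17% of all genes. A match is a description of these letters only. Of the genes lower in chronic than in acute groups, Dnaja1, Dnaja4, Dnajb4, Dnajc3, Hsp90b1, Hspd1 and Hsph1 carried a motif. Hspa2, Hspa4, Hspa4l, Hspa14 and Ahsa1, also lower, had none of the 3 motifs in their windows, and Hsp90aa1 and Hspa13 had no window. Of the carriers, Bag3, Chordc1, Dnaja1, Dnaja4, Dnajb6 and Hspb8 are not printed. A link of motif to movement after morphine was not tested.

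In the stretches of the endoplasmic reticulum genes, written 5′ to 3′ on the strand of the gene, capitals mark the stress element or its reverse complement. The Hsp90b1 stretch (chr10:86705518-86705671, minus strand) holds the element in both orientations:
Hsp90b1: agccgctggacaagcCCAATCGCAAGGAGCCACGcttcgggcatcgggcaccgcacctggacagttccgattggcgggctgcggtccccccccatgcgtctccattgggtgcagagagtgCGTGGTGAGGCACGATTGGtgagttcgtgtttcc
The others hold it once, at chr14:118937812-118937860 on the plus strand for Dnajc3, chr2:34772010-34772058 on the plus strand for Hspa5, chr11:50325785-50325833 on the minus strand for Canx and chr8:84847060-84847108 on the minus strand for Calr.
Dnajc3: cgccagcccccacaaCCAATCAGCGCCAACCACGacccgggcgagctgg
Hspa5: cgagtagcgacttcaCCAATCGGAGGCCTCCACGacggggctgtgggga
Canx: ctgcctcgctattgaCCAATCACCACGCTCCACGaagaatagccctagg
Calr: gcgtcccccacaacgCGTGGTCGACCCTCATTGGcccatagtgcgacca

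In the stretches of the heat shock genes, capitals mark heat shock elements of 2 units, which run together where an element has 3 units or more. Hspd1 and Hspe1 lie head to head on chromosome 1 and share one stretch (chr1:55088044-55088091), shown here on the plus strand, that of Hspe1. Hsph1 is read from the minus strand (chr5:149636273-149636384), Dnajb4 from the minus strand (chr3:152193837-152193874) and Hspb1 from the plus strand (chr5:135887787-135887844).
Hspe1: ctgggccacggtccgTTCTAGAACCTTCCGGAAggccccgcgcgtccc
Hsph1: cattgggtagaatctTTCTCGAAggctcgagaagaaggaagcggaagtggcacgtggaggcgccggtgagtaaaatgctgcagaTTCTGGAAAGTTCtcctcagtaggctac
Dnajb4: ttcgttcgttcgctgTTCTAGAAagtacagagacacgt
Hspb1: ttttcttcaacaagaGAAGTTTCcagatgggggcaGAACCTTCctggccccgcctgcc

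Some arrays stood apart over all probe sets. Array weights were lowest for C57BL/6J saline 1 (0.339), DBA/2J chronic 2 (0.366) and C57BL/6J chronic 2 (0.432), and C57BL/6J saline 1 also had a 3′ over 5′ difference of Gapdh control probe sets of 0.72 on the log2 scale. The score of the poly-A spike controls, a log2 deviation from the mean of the arrays, was -3.40 in 129P3/J saline 3, -3.30 in DBA/2J saline 3 and -0.80 in SWR/J chronic 2, and -0.03 to 0.48 in the other 33 arrays. Arrays of 1 treatment with the same number deviated together across strains, and a second fit of each contrast took the 9 combinations of treatment and number as random blocks. The block ends many of the calls reported here. Its adjusted p stands beside most calls over all strains, but beside few of those within a strain and none of the strain effects. Of 8 medium spiny neuron markers, 6 were detected, with summed intensities of 13500 to 15800 in chronic, 13100 to 16300 in acute and 14100 to 16800 in saline arrays.

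Most calls among the chaperones lay between chronic and acute morphine. The last dose was 40 mg/kg in chronic and 20 mg/kg in acute groups, so repeated dosing and the larger last dose cannot be told apart. Over the mean of the 4 strains, 15 of the 36 genes passed an adjusted p under 0.05 (limma, Benjamini-Hochberg over all 27212 probe sets), 14 of them lower and 1 higher in chronic groups. The background is high: 23.4% of all probe sets passed, 14.6% lower and 8.87% higher. The median difference of the 36 genes was -0.12 on the log2 scale, beside -0.01 for all probe sets and -0.03 for all measured genes, and 29 of the 36 genes had a negative difference. With the random block 7 of the 36 genes passed, against 7.15% of all probe sets. The comparison shares its chronic arrays with that of chronic morphine and saline, and its acute arrays with that of acute morphine and saline.

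**Figure D1:**
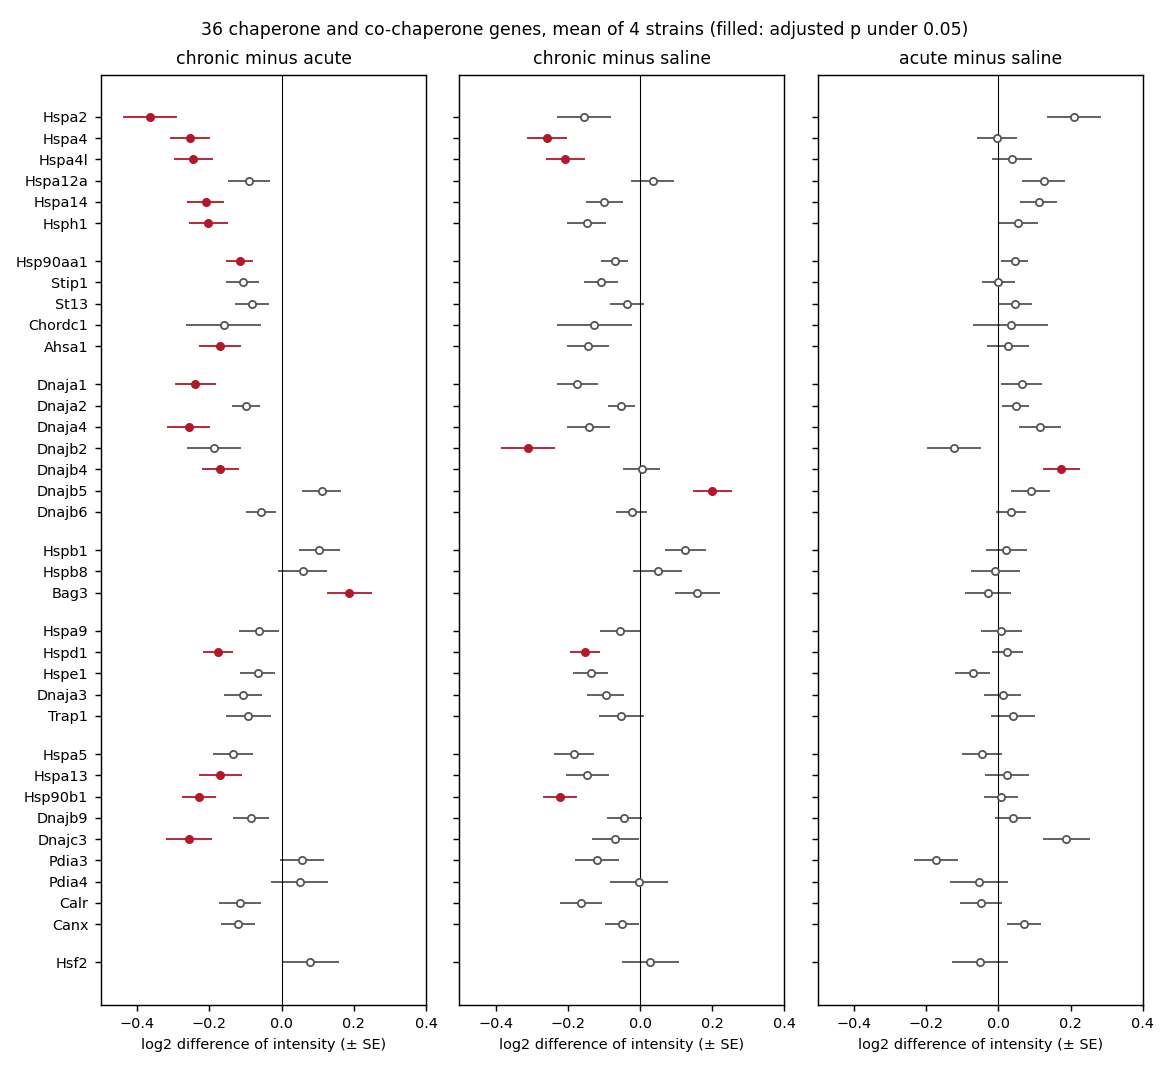
Log2 difference of intensity (horizontal axis, point with SE) for each of the 36 genes, grouped by role, for chronic minus acute, chronic minus saline and acute minus saline over all strains; filled points have an adjusted p under 0.05. In chronic minus acute 14 genes are filled below 0 and Bag3 is filled above it.

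The cytosolic Hsp70 and Hsp110 genes were the group with most calls: 5 of its 6 genes were lower in chronic than in acute groups, with a median of -0.23. Hspa2, an Hsp70 best known from the testis but also made in brain, had 7.80, 7.91 and 8.39 as the lowest, median and highest log2 intensity of the 12 chronic arrays, against 8.21, 8.35 and 8.63 in the 12 acute arrays. The chronic arrays lay mostly below the acute ones but overlapped them. The difference was -0.36 ± 0.08 (SE; 0.777-fold, adjusted p = 0.00148, limma; 0.0255 with the random block). Hspa2 was negative in all 4 strains, between -0.27 in 129P3/J and -0.47 in SWR/J.

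Hspa4, an Hsp110 protein that acts as a nucleotide exchange factor of Hsp70, had 10.44, 10.67 and 10.97 in chronic arrays against 10.75, 10.95 and 11.06 in acute arrays. Chronic arrays were all below all acute arrays in 129P3/J, DBA/2J and SWR/J, and in C57BL/6J only chronic 2 reached the acute range. The difference was -0.25 ± 0.06 (SE, adjusted p = 0.00239, limma; 0.0278 with the random block). Its relative Hspa4l had 8.73, 8.99 and 9.30 in chronic arrays against 8.91, 9.19 and 9.59 in acute arrays, a difference of -0.24 ± 0.05 (SE, adjusted p = 0.00264, limma). In DBA/2J its 3 acute arrays were the highest of all 36.

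The other Hsp110 gene, Hsph1, which is itself heat inducible, differed by -0.20 ± 0.05 (SE, adjusted p = 0.00778, limma; 0.0687 with the random block). Hspa14, an Hsp70 that works at the ribosome, differed by -0.21 ± 0.05 (SE, adjusted p = 0.00432, limma; 0.0627 with the random block). The second probe set of Hsph1 gave -0.25 and that of Hspa14 -0.21, of which the Hsph1 value passed the test and that of Hspa14 did not (adjusted p = 0.0597, limma). Hspa12a, a distant Hsp70 relative expressed in brain, gave -0.09 with an adjusted p of 0.275 (limma).

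**Figure D2:**
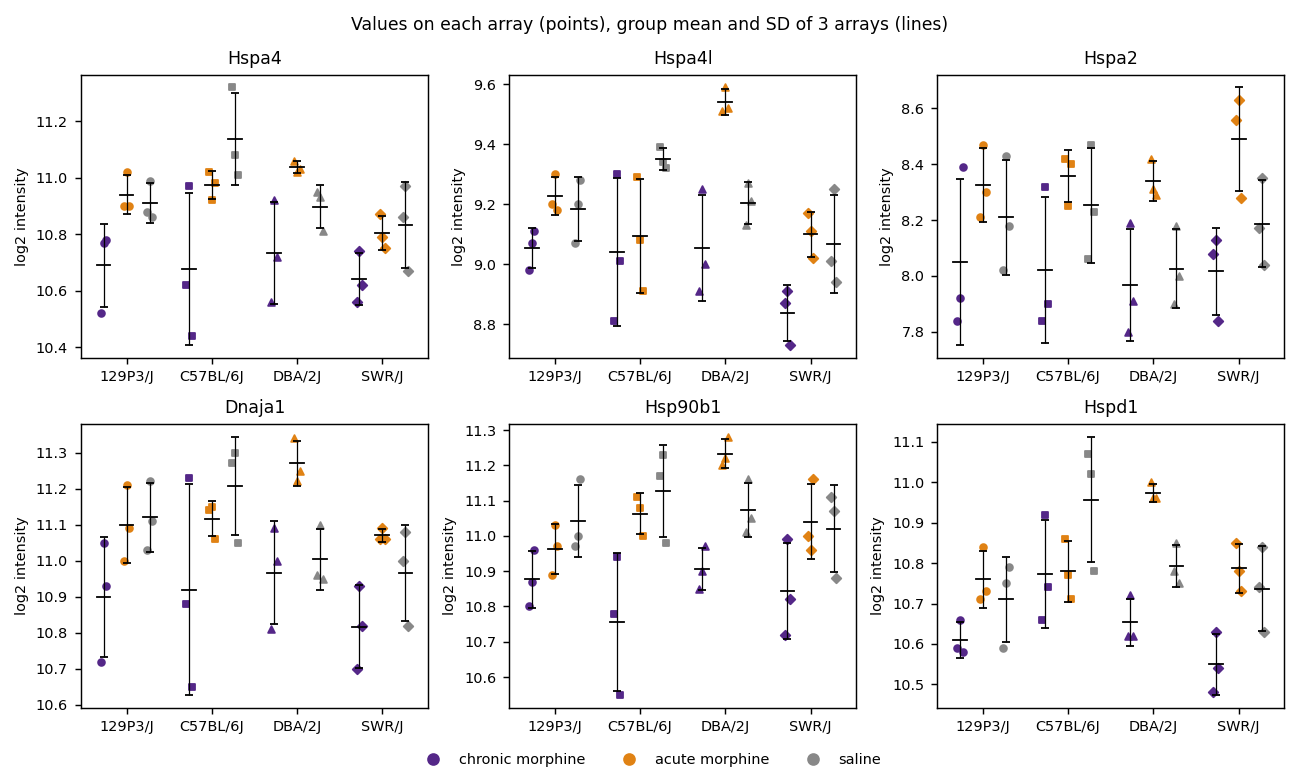
Log2 intensity (vertical axis) on each of the 36 arrays for Hspa4, Hspa4l, Hspa2, Dnaja1, Hsp90b1 and Hspd1, by strain and, from left to right within a strain, chronic morphine, acute morphine and saline; lines give the mean and SD of 3 arrays. The chronic means lie below the acute means in every panel and strain, with the smallest gap for Hspd1 in C57BL/6J.

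Among the 7 cytosolic J proteins, 3 were lower in chronic than in acute groups. Dnaja1, an abundant partner of the constitutive Hsp70, had 10.65, 10.91 and 11.23 in chronic arrays against 11.00, 11.12 and 11.34 in acute arrays. The difference of -0.24 ± 0.06 (SE, adjusted p = 0.00419, limma; 0.0389 with the random block) was matched by -0.19 and -0.16 for its other probe sets, both past the test. Dnaja4 differed by -0.26 ± 0.06 (SE, adjusted p = 0.00333, limma; 0.047 with the random block). Another probe set of Dnaja4 gave -0.33 (adjusted p = 0.000253, limma).

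Dnajb4 differed by -0.17 ± 0.05 (SE, adjusted p = 0.0177, limma; 0.12 with the random block). It was lower in 3 strains and higher by 0.20 in C57BL/6J. Among the rest, Dnajb2, a neuronal J protein that sorts clients to the proteasome, gave -0.19 (adjusted p = 0.0674), Dnaja2 gave -0.10 (0.0606) and Dnajb6, an aggregation-suppressing J protein, gave -0.06 (0.332, all limma). Dnajb5 gave 0.11 (adjusted p = 0.131, limma), while its other probe sets gave 0.35 and 0.22 and passed the test. The probe sets of Dnaja2 disagreed: one dimmer than the one used gave -0.16 (adjusted p = 0.044) and another 0.32 (0.00963, both limma). A dimmer probe set of Dnajb6 also passed, at -0.18 (adjusted p = 0.00656, limma).

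In the endoplasmic reticulum 3 of 9 genes were lower in chronic groups. Hsp90b1, the Hsp90 of this compartment (GRP94), had 10.55, 10.86 and 10.99 in chronic arrays against 10.89, 11.05 and 11.28 in acute arrays. The chronic median lay below all acute arrays, but several chronic arrays overlapped the acute range. The difference was -0.23 ± 0.05 (SE, adjusted p = 0.00155, limma; 0.0333 with the random block), but its second, dimmer probe set gave -0.004.

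Dnajc3, a J protein of the endoplasmic reticulum lumen, differed by -0.26 ± 0.06 (SE, adjusted p = 0.00588, limma; 0.0629 with the random block). Of its 4 other probe sets 1 rose by 0.27 (adjusted p = 0.0315, limma) and none fell past the test. Hspa13, a little-studied Hsp70 of microsomes, differed by -0.17 ± 0.06 (SE, adjusted p = 0.04, limma; 0.187 with the random block). The remaining genes that carry the stress element shown above had negative differences short of the threshold: Canx, a lectin chaperone, -0.12 (adjusted p = 0.0597), its soluble relative Calr -0.12 (0.151), and Hspa5, the Hsp70 of this compartment (BiP), -0.14 (0.0753, all limma). Canx and Calr passed on other probe sets: a dim one of Canx gave -0.37 (adjusted p = 0.0009), and those of Calr gave -0.18 and -0.16 (0.0199 and 0.0446, all limma). The protein disulphide isomerases Pdia3 and Pdia4 gave 0.06 and 0.05, and Dnajb9, a BiP partner, -0.08.

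Of the 5 mitochondrial genes Hspd1, the chaperonin Hsp60, was lower. It had 10.48, 10.63 and 10.92 in chronic arrays against 10.71, 10.81 and 11.00 in acute arrays, a difference of -0.18 ± 0.04 (SE, adjusted p = 0.00403, limma; 0.0463 with the random block). In 129P3/J, DBA/2J and SWR/J the chronic and acute arrays of Hspd1 did not overlap. Hspe1, its co-chaperonin Hsp10, which shares the start region printed above, gave -0.07 ± 0.05 (SE, adjusted p = 0.339, limma). Hspa9 (mortalin), Trap1 and Dnaja3 gave -0.06, -0.09 and -0.11, short of the threshold, while the other probe set of Trap1 passed at -0.26 (adjusted p = 0.00365, limma).

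Of the 5 measured genes of the cytosolic Hsp90 machinery, Hsp90aa1 and Ahsa1 were lower. Hsp90aa1, the inducible Hsp90, differed by -0.12 ± 0.04 (SE, adjusted p = 0.0257, limma; 0.144 with the random block). Its other probe sets disagreed, at -0.22 (adjusted p = 0.00152) and 0.13 (adjusted p = 0.0641, both limma). Ahsa1, which stimulates the ATPase of Hsp90, differed by -0.17 ± 0.06 (SE, adjusted p = 0.0328, limma; 0.142 with the random block). Stip1 and St13, which link Hsp70 to Hsp90, and Chordc1, an Hsp90 co-chaperone, gave -0.11, -0.08 and -0.16, short of the threshold. A dimmer probe set of St13 gave 0.34 (adjusted p = 0.00437, limma).

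The gene that was higher in chronic groups was Bag3, the co-chaperone of small heat shock proteins in selective autophagy. Its arrays ran at 7.98, 8.18 and 8.42 in chronic against 7.80, 8.01 and 8.23 in acute groups. The difference of 0.19 ± 0.06 (SE, adjusted p = 0.0312, limma; 0.19 with the random block) was positive in all 4 strains. The small heat shock proteins Hspb1 and Hspb8 gave 0.10 and 0.06, and heat shock factor 2, Hsf2, gave 0.08, short of the threshold.

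Of the 36 genes 17 were lower in chronic than in acute groups in all 4 strains, and Bag3 was higher in all 4, beside 20.8% and 18.3% of all probe sets. Of the 15 called genes, 12 had other detected probe sets: for 5 (Dnaja1, Dnaja4, Hsp90aa1, Hspa4l, Hsph1) another one passed in the same direction, for Dnajc3 one passed in the opposite direction, and for 6 none passed. Of the genes not called, Calr, Canx, Dnaja2, Dnajb6, Hspb8 and Trap1 had another probe set that passed as lower, and Dnaja2, Dnajb5 and St13 one that passed as higher. When the mean of all detected probe sets of a gene was used, Ahsa1, Dnajb4, Dnajc3, Hsp90aa1, Hsp90b1, Hspa13 and Hspa4 no longer passed, with adjusted p of 0.0949 to 0.694. Cell type markers moved in the same comparison: 2 of 5 astrocyte, 2 of 5 oligodendrocyte and 1 of 6 medium spiny neuron markers were lower in chronic groups, and 1 of 5 microglial markers was higher. With the random block 1 astrocyte and 1 oligodendrocyte marker passed, and no medium spiny neuron or microglial marker did. The summed astrocyte markers were 5540 to 6920 in chronic arrays and 6490 to 7830 in acute arrays. The 3 cortical excitatory neuron markers measured summed to 710 to 2260 in chronic and 637 to 1600 in acute arrays, with a median difference of 0.35, and none passed. The hybridization control score, a log2 deviation from the mean of the arrays, was 0.31, -0.009 and 0.212 in chronic arrays of number 1, 2 and 3 (means over strains), against -0.352, 0.291 and -0.475 in acute arrays. The part of these markers and controls in the result was not tested.

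Within strains, the number of genes with no overlap between chronic and acute arrays was highest in DBA/2J. All 3 chronic arrays lay below all 3 acute arrays for 24 of the 36 genes in DBA/2J, where 17.6% of all probe sets did so. The count was 14 in SWR/J (14.9% of all probe sets), 10 in 129P3/J (9.22%) and 2 in C57BL/6J (7.38%). In C57BL/6J, 5 genes had all chronic arrays above all acute arrays, Hspb1, Dnajb4, Dnajb5, Bag3 and Hspa5 (10.5% of all probe sets). The median difference of the 36 genes was -0.23 for DBA/2J, -0.16 for SWR/J, -0.07 for 129P3/J and -0.03 for C57BL/6J. For all measured genes the median was -0.065, -0.057, -0.016 and -0.006, in the same order of strains. No gene passed the test of a strain by morphine interaction, as no probe set did (5 of the 36 genes had an unadjusted p under 0.05 by limma), so a difference between strains is not shown.

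**Figure D3:**
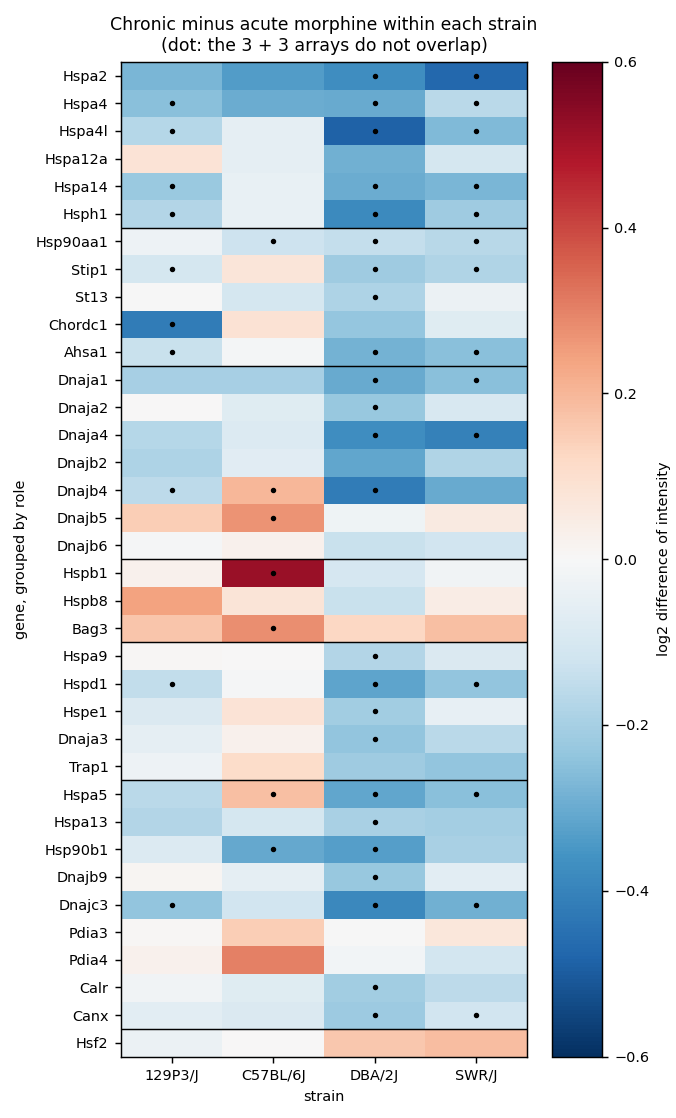
Log2 difference of intensity, chronic minus acute morphine, for each of the 36 genes (rows, grouped by role) in each strain (columns), on a scale from blue (lower in chronic) to red (higher in chronic); a dot marks genes whose 3 chronic and 3 acute arrays do not overlap. DBA/2J has 24 blue dots and C57BL/6J has 2 blue and 5 red dots.

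By the adjusted p, 2 genes differed between chronic and acute morphine in DBA/2J, where 1.21% of all probe sets passed. Hspa4l had 8.91, 9.25 and 9.00 in chronic arrays 1 to 3 against 9.51, 9.59 and 9.52 in acute arrays 1 to 3. The groups stood well apart, with a difference of -0.48 ± 0.11 (SE, adjusted p = 0.0348, limma). Dnajb4 had 9.77, 9.97 and 9.83 in chronic arrays against 10.41, 10.15 and 10.27 in acute arrays, a difference of -0.42 ± 0.10 (SE, adjusted p = 0.0439, limma). The mean of all its detected probe sets gave -0.27 (adjusted p = 0.0998, limma). With each of the 36 arrays left out in turn, the call of Dnajb4 was lost in 11 cases and that of Hspa4l in 5. Without single arrays of these groups (acute 1 or 3, chronic 1 or 3) neither gene passed, and without DBA/2J chronic 2, an array of low weight, 7 genes did. None of the 36 genes passed in 129P3/J or SWR/J, where 0.00367% and 0% of all probe sets did (2 and 12 genes at an unadjusted p under 0.05, limma).

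After chronic morphine, set against saline, 6 of the 36 genes passed over the 4 strains, 5 lower and 1 higher, where 4.73% of all probe sets passed (3.37% lower and 1.36% higher). None of them passed with the random block, where 0.331% of probe sets did. Hsp90b1 had 10.55, 10.86 and 10.99 in chronic arrays against 10.88, 11.06 and 11.23 in saline arrays, and differed by -0.22 ± 0.05 (SE, adjusted p = 0.00738, limma; 0.152 with the random block). Chronic arrays of Hsp90b1 fell mostly below the saline ones. Hspa4 had 10.44, 10.67 and 10.97 in chronic arrays against 10.67, 10.94 and 11.32 in saline arrays, and differed by -0.26 ± 0.06 (SE, adjusted p = 0.00769, limma; 0.109 with the random block).

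Dnajb2 showed the greatest drop of the 36 genes in this comparison. It had 9.05, 9.19 and 9.71 in chronic arrays against 9.28, 9.60 and 9.79 in saline arrays, a difference of -0.31 ± 0.07 (SE, 0.806-fold, adjusted p = 0.0152, limma; 0.139 with the random block). Hspa4l differed by -0.21 ± 0.05 (SE, adjusted p = 0.0274, limma; 0.246 with the random block) and Hspd1 by -0.15 ± 0.04 (SE, adjusted p = 0.0348, limma; 0.276 with the random block). Dnajb5 was the gene that rose, by 0.20 ± 0.05 (SE, adjusted p = 0.0287, limma; 0.276 with the random block), with 0.21 and 0.23 for its other probe sets, of which the first passed. Hspa5, at -0.18, just missed the threshold (adjusted p = 0.0538, limma).

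Of the 36 genes 29 had a negative difference to saline, with a median of -0.10, against 0.00 for all probe sets (0.0001 before rounding). Lower in all 4 strains were 16 genes, beside 18.3% of all probe sets, and higher in all 4 were Bag3 and Dnajb5, beside 14.6%. On the probe sets used, all 9 endoplasmic reticulum genes, all 5 mitochondrial genes and all 5 genes of the Hsp90 machinery had negative differences. Of these, Hsp90b1 and Hspd1 passed the test. Some other detected probe sets, of Canx, Dnajc3, Hspa13, Pdia3, Pdia4, Dnaja3, Hspa9 and St13, were positive, none past the test. Of the genes not called, Calr and Dnaja4 had another probe set that passed as lower (-0.22 and -0.21, adjusted p = 0.019 and 0.0166, limma). With the mean of all detected probe sets Hsp90b1, Hspa4 and Hspa4l no longer passed (adjusted p of 0.0597 to 0.186), and without SWR/J saline 2 or SWR/J chronic 3 the count was 3, against 11 without C57BL/6J chronic 2. The summed astrocyte markers were 5540 to 6920 in chronic arrays against 6300 to 8400 in saline arrays, and 2 of 5 astrocyte, 2 of 5 oligodendrocyte, 2 of 6 medium spiny neuron and 1 of 3 endothelial markers were lower. None of these markers passed with the random block. The cortical excitatory neuron markers (Neurod6, Slc17a7 and Tbr1) summed to 710 to 2260 in chronic arrays against 299 to 1520 in saline arrays, with a median difference of 0.77 and adjusted p of 0.0525 to 0.0666 (limma). The part of these markers was not tested.

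Hspb1, the small heat shock protein Hsp27, was higher after chronic morphine in C57BL/6J. It had 9.62, 9.56 and 9.94 in C57BL/6J chronic arrays 1 to 3 against 9.35, 9.17 and 9.06 in saline arrays 1 to 3. All 3 chronic arrays lay above the saline arrays and above the acute arrays, which were at 9.14, 9.31 and 9.12. The difference to saline was 0.51 ± 0.11 (SE, 1.43-fold, adjusted p = 0.0229, limma), and that to acute morphine 0.52 ± 0.11 (SE, adjusted p = 0.0457, limma; 0.0546 with the random block).

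The second probe set of Hspb1 gave 9.10, 8.97 and 9.32 in C57BL/6J chronic arrays against 8.78, 8.56 and 8.48 in saline arrays, the same order. Both probe sets target 1 gene and are not independent of each other. In the remaining strains Hspb1 after chronic morphine overlapped the saline arrays. Its interaction p of strain and morphine was 0.00433 before adjustment and 0.852 after it (limma).

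**Figure D4:**
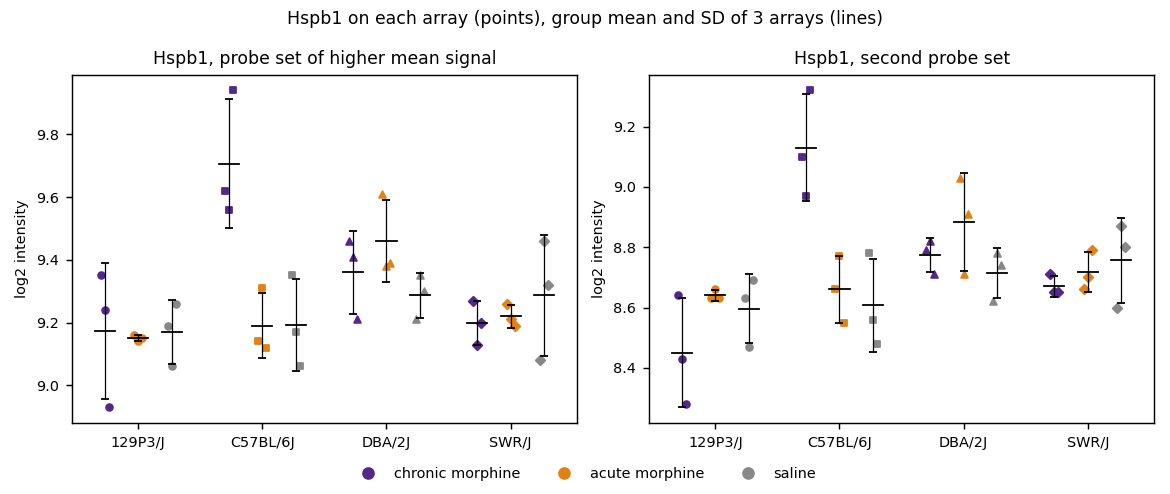
Log2 intensity (vertical axis) of the 2 probe sets of Hspb1 on each of the 36 arrays, by strain and, from left to right within a strain, chronic morphine, acute morphine and saline; lines give the mean and SD of 3 arrays. The C57BL/6J chronic arrays (9.56 to 9.94 in the first probe set) lie above the C57BL/6J acute and saline arrays in both.

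With Hspb1, 3 of the 36 genes passed for chronic morphine against saline in C57BL/6J, where 1.75% of all probe sets did. Hspa4 had 10.62, 10.97 and 10.44 in chronic arrays against 11.32, 11.08 and 11.01 in saline arrays and differed by -0.46 ± 0.11 (SE, adjusted p = 0.0331, limma). Hsp90b1 had 10.78, 10.94 and 10.55 against 11.17, 11.23 and 10.98, a difference of -0.37 ± 0.09 (SE, adjusted p = 0.0413, limma). For both genes every chronic array lay below every saline array. In C57BL/6J, chronic against acute morphine, Hspb1 was the gene of the 36 that passed, where 0.228% of all probe sets did. That call was lost in 24 of the 36 fits that left out 1 array, of any strain.

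These calls rest on few arrays. Without C57BL/6J saline 1, the array with the high Gapdh difference, Hspb1 still passed after chronic morphine, while Hspa4 (adjusted p = 0.163) and Hsp90b1 (0.141, both limma) did not. Without saline 2, chronic 1 or chronic 3 none of the 3 genes passed, and without chronic 2 the count was 9. The mean of all probe sets gave -0.04 for Hspa4 and -0.21 for Hsp90b1 in this comparison, and neither passed (adjusted p = 0.893 and 0.338, limma). Summed astrocyte markers were 5540 to 6780 in C57BL/6J chronic arrays against 7150 to 8400 in saline arrays, and cortical neuron markers 737 to 1240 against 299 to 1160, and their part was not tested. None of the 36 genes passed for chronic morphine in 129P3/J, DBA/2J or SWR/J, where 0.00367%, 0.00735% and 0.0294% of all probe sets did (1, 2 and 6 genes at an unadjusted p under 0.05, limma).

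Acute morphine moved few of these genes over the 4 strains. On the probe sets used, Dnajb4 was the gene that passed, where 4.69% of all probe sets did. Its arrays ran at 9.84, 10.17 and 10.41 in acute groups against 9.81, 9.96 and 10.20 in saline groups, and the difference was 0.17 ± 0.05 (SE, 1.13-fold, adjusted p = 0.0459, limma). It was positive in all 4 strains, but the ranges overlapped and the random block gave an adjusted p of 0.299, with 0.676% of all probe sets passing. The other probe sets of Dnajb4 gave 0.24 and 0.04 (adjusted p = 0.115 and 0.756, limma), and the mean of its probe sets did not pass. Dimmer probe sets of Hsp90aa1 (-0.18, adjusted p = 0.0391) and St13 (-0.30, 0.0288, both limma) passed as lower after acute morphine. With each of the 36 arrays left out in turn, no gene passed in 19 cases. Higher in all 4 strains were Canx, Dnaja4, Dnajb4, Dnajc3 and Hspa2, beside 10.8% of all probe sets, and lower in all 4 was Pdia3, beside 11.6%. Dnajc3 (0.19), Pdia3 (-0.17) and Hspa2 (0.21) had adjusted p of 0.091 to 0.107 (limma). The median of the 36 genes was 0.03, beside 0.01 for all probe sets and 0.02 for all measured genes. Among cell type markers, 2 of 5 microglial and 1 of 3 endothelial markers were lower in acute groups, and no other marker passed. With the random block 1 microglial marker passed. The part of these markers was not tested.

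In DBA/2J the acute arrays stood higher than the saline arrays across the list. Of the 36 genes 32 had a positive difference. The median of the 36 was 0.15, beside 0.01 for all probe sets and 0.04 for all measured genes. For 17 genes every acute array lay above every saline array, where 15.5% of all probe sets did so. Hspa4l had 9.51, 9.59 and 9.52 in acute arrays against 9.13, 9.27 and 9.21 in saline arrays, and Hsph1 had 11.47, 11.30 and 11.34 against 10.99, 11.11 and 11.08. Neither group overlapped the other, at differences of 0.33 and 0.31. No gene passed, the lowest adjusted p being that of Dnajb4 (0.38 ± 0.10, SE, adjusted p = 0.0615, limma), and 12 genes had an unadjusted p under 0.05.

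None of the 36 genes passed for acute morphine in 129P3/J, C57BL/6J, DBA/2J or SWR/J, where 0.0147%, 0.294%, 0.974% and 0.0478% of all probe sets did (0, 5, 12 and 2 genes at an unadjusted p under 0.05, limma). In C57BL/6J the sign was mostly negative, for 25 of 36 genes, with a median of -0.08 beside -0.03 for all measured genes. For 6 genes every C57BL/6J acute array lay below every saline array, where 11% of all probe sets did so. The inducible pair Hspa1a and Hspa1b and the J protein Dnajb1, which are not on the list, rose after acute morphine by 0.42, 0.51 and 0.36 over all strains (adjusted p of 0.000377 to 0.00523, limma), and Dnajb1 was lower by 0.33 in chronic than in acute groups. Of these 3 genes and Hspa8, 2 passed for acute morphine with the random block.

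Taking all 3 treatments in 1 F-test of morphine at an FDR of 1%, 7 of the 36 genes passed, where 8.71% of all probe sets did: Hsp90b1 (adjusted p = 0.00163), Hspa4 (0.00216), Hspa2 (0.00392), Hspa4l (0.00426), Hspd1 (0.00644), Dnaja4 (0.00914) and Dnaja1 (0.00938, all limma). Every one of them had its lowest mean in the chronic groups. With the random block none passed, at adjusted p of 0.0352 to 0.117. The count was 3 without 129P3/J chronic 1, C57BL/6J chronic 1, DBA/2J chronic 1 or SWR/J chronic 3, and 11 without C57BL/6J chronic 2.

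On the probe sets used, strain effects were found for 6 of the 36 genes at an FDR of 1%, where 13.2% of all probe sets passed. These are differences of probe set intensity, and sequence variants between strains under the probes were not checked. Dimmer probe sets of Dnajc3 (adjusted p = 2.06e-06), Dnaja2 (3.4e-05), Pdia3 (7.75e-05) and Hspa12a (0.00871, all limma) also passed this F-test. Set against the mean of the 4 strains, 3 genes passed for SWR/J (9.7% of all probe sets), 5 for DBA/2J (8.53%), 4 for C57BL/6J (11.2%) and 4 for 129P3/J (9.22%). Hspe1 differed between strains on both of its probe sets. Its 9 SWR/J arrays had 10.30, 10.45 and 10.61 as lowest, median and highest log2 intensity, against medians of 10.06 to 10.08 in the other strains. SWR/J exceeded the mean of the 4 strains by 0.27 ± 0.03 (SE, adjusted p = 1.14e-06, limma), and 129P3/J lay below it by 0.15 (adjusted p = 0.00312, limma); the second probe set gave 0.26 and -0.16, both past the test. The partner gene Hspd1, which shares the start region, did not pass (adjusted p = 0.0426 against the limit of 1%).

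Dnaja4 was low in 129P3/J (8.11, 8.29 and 8.41) and high in DBA/2J (8.41, 8.67 and 8.97). The difference from the mean of 4 strains was -0.20 ± 0.04 and 0.18 ± 0.04 (SE, adjusted p = 0.000934 and 0.00465, limma), and another probe set gave -0.47 and 0.21. Hspb8, a small heat shock protein that partners Bag3, was higher in C57BL/6J (0.21 ± 0.05, adjusted p = 0.00232) and lower in 129P3/J (-0.18 ± 0.05, adjusted p = 0.00991, both SE and limma). The second probe set of Hspb8 gave 0.12 and -0.05 and did not pass, and the dimmest one gave 0.75 and -0.71 and did. That probe set also fell between chronic and acute morphine (-0.59, adjusted p = 0.0141, limma), unlike the one used.

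Hspa5 was higher in DBA/2J, by 0.17 ± 0.04 (SE, adjusted p = 0.0031, limma), with 10.90, 11.16 and 11.47 there against medians of 10.90 to 11.03 in the other strains. Its F-test over strains passed narrowly (adjusted p = 0.0082, limma). That call was lost in 19 of the 36 fits that left out 1 array, and also without the filter on low signal (0.0147), with quantile normalization (0.014) and with the mean of its probe sets (0.0347). Pdia4 was higher in DBA/2J by 0.25 ± 0.06 and lower in C57BL/6J (-0.21 ± 0.06, SE, adjusted p = 0.00307 and 0.0108, limma), but its second probe set, at 0.09 and -0.08, did not pass. C57BL/6J saline 1 held the lowest Pdia4 value of all arrays, 8.01. Pdia3 was higher in DBA/2J by 0.16 and lower in C57BL/6J (-0.15, adjusted p = 0.0163 and 0.0172, limma) without passing the F-test on this probe set. Its dimmer probe set passed the F-test and was higher in C57BL/6J, by 0.43. Hspa4l was lower in SWR/J (-0.14, adjusted p = 0.0136, limma).

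The probe sets of Hspa13 ran in opposite directions between strains. On the probe set of highest signal the 9 DBA/2J arrays had 8.32, 8.50 and 8.66 against lowest values of 8.98 to 9.00 in the other strains, with no overlap. This is -0.58 ± 0.04 from the mean of 4 strains (SE, adjusted p = 1.59e-11, limma). A second probe set was higher in DBA/2J by 1.23 (adjusted p = 9.56e-12), another by 0.77 (adjusted p = 1.64e-07), and the remaining one was lower (-0.26, adjusted p = 0.0131, all limma). The data thus give no single direction for Hspa13 in DBA/2J.

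**Figure D5:**
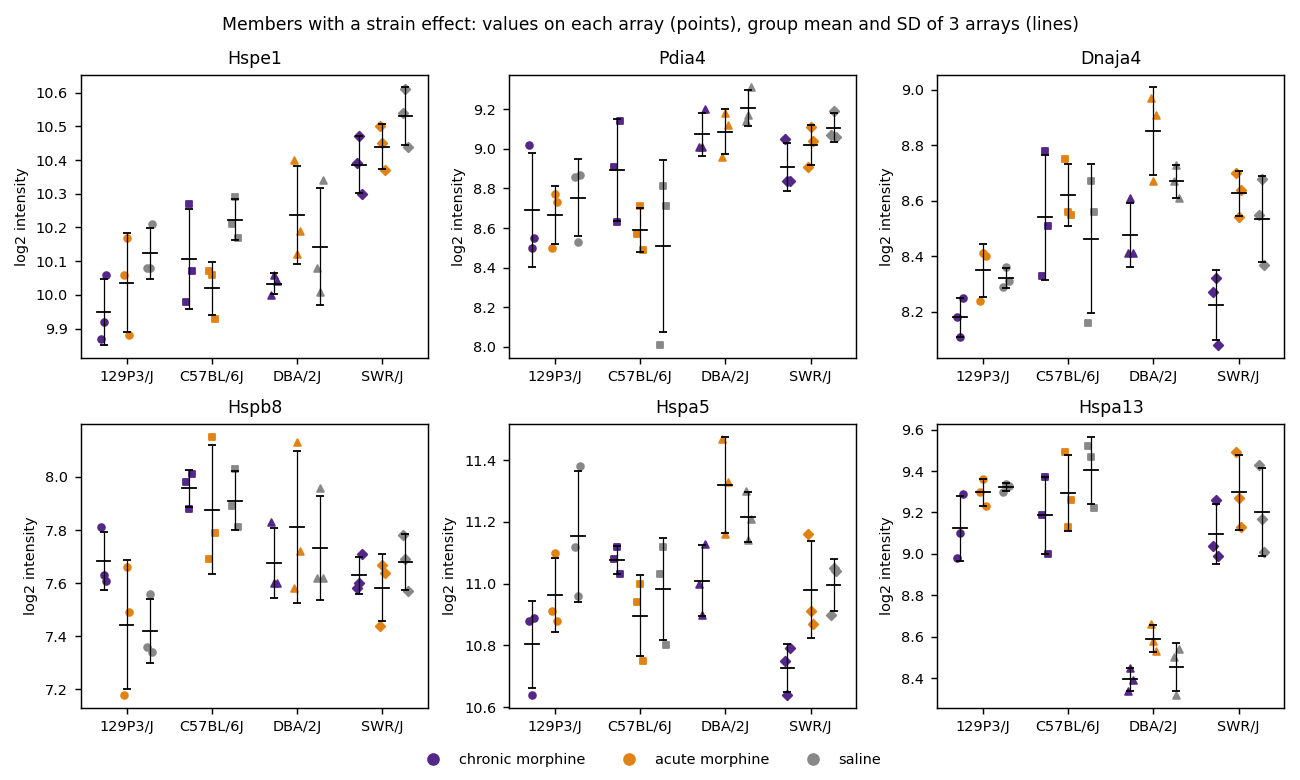
Log2 intensity (vertical axis) on each of the 36 arrays for the 6 genes with a strain effect, by strain and, from left to right within a strain, chronic morphine, acute morphine and saline; lines give the mean and SD of 3 arrays. Hspe1 is highest in SWR/J, and the DBA/2J arrays of Hspa13 (8.32 to 8.66) lie below all others on this probe set.

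Within groups the genes varied together. Over the 36 arrays, taken as deviations from the mean of their group, the median Pearson r of the 630 pairs of genes was 0.267, beside 0.027 for pairs of all measured genes. It was 0.561 among the Hsp70 and Hsp110 genes, 0.472 among the J proteins and 0.213 in the endoplasmic reticulum. The highest values were 0.91 for Dnajb2 with Ahsa1, 0.876 for Dnaja1 with Dnajc3 and 0.87 for Hspa4 with Dnaja1, and the lowest was -0.654 for Hspa4 with Pdia4. These points share arrays and normalization, and the mean score of the 14 genes that fell differed between array numbers. It was -0.196, -0.01 and -0.154 (SD over 4 strains 0.043, 0.125 and 0.094) in chronic arrays of number 1, 2 and 3. In acute arrays it was 0.134, 0.106 and 0.056, and in saline arrays -0.004, 0.09 and -0.022. The order was not shared by all strains: in 129P3/J, chronic 3 was the highest chronic array (-0.026). The 14 genes were chosen as lower in chronic than in acute groups, so that difference in score follows from the choice. The hybridization control score also differed between numbers, and in saline arrays it was -0.203, -0.024 and 0.249. Its part in the shared movement was not tested. The median SD within groups was 0.132 on the log2 scale for the 36 genes, beside 0.165 for all measured genes.

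Further folding genes were counted from wider lists of the same families, beside 14.6% of all probe sets lower and 8.87% higher in chronic than in acute groups. Among 32 further Hsp70, J and small heat shock protein genes, 9 were lower in chronic than in acute groups and none higher, with a median of -0.07. Of 22 further endoplasmic reticulum folding and stress genes, 5 were lower and 1 higher (median -0.09), and of 14 subunits of the chaperonin CCT and prefoldin, 4 were lower and 1 higher (median -0.03). Among 18 BAG and other Hsp70 or Hsp90 cofactors, 1 was lower (median -0.02). With the random block 3 of the 32, 1 of the 22, none of the 14 and 1 of the 18 passed, where 7.15% of all probe sets did. After chronic morphine against saline, where 3.37% of all probe sets were lower and 1.36% higher, 3 of the 32, 3 of the 22 (1 more was higher), none of the 14 and none of the 18 were lower, and 1 of the 18 was higher. With the random block 1 of the 18 passed there. Between acute morphine and saline, where 4.69% of all probe sets passed, 1 of the 18 and 1 of the 22 were higher, and none of the others passed. With the block 1 of the 18 passed and none of the other lists did.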

How the data were processed

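Striatal RNA was measured on 36 Affymetrix whole-genome mouse arrays. The deposited table holds linear signal intensity for 45101 probe sets, taken, from the methods and the linear scale, to be the model-based index that the authors obtained with dChip after quantile normalization. The lowest value, 6.69, is a floor. A row with 2 missing values was left out, as were 64 Affymetrix control probe sets in the tests. Array medians were 119 to 133, and precision is limited by how few arrays a group has. Log2 was taken without a pseudocount. Probe sets with an intensity above 99.7 on at least 9 of 36 arrays were kept. The 12 groups were fitted (24 residual degrees of freedom) with limma 3.58.1 under R 4.3.3, using empirical Bayes moderation. Contrasts were called at an adjusted p under 0.05 and F-tests at an FDR of 1%, with Benjamini-Hochberg adjustment over all 27212 probe sets. The random block used duplicateCorrelation (statmod 1.5.0). Every measured member is named. Statistics are given for members past a test, but not for each of their calls and not always with an SE. The members and lists were chosen with earlier results of these data known. Genes were named through the platform annotation and RefSeq (GRCm38.p6), which also gave the promoter windows. The fit was tested on simulated data in which every array varied independently. That simulation left out the shared deviation of arrays with the same treatment and number, so it cannot bear on calls without the block. Alternatives left out single arrays, averaged the probe sets of a gene, weighted arrays, or changed the filter, the scaling, the pseudocount, the block, the variance trend or the thresholds. Python 3.11.15 with pandas 2.3.3 and matplotlib 3.10.9 made tables and figures. Values by other normalizations and RT-PCR data were not analysed here.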

Additional observations from a re-analysis of the deposited data

How the results depend on the processing

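Single calls among these genes are small differences near the threshold, and they depend on the block, the probe set and single arrays. Replicate numbers group arrays within a treatment. For this check each array was centred on its own group of 3. Arrays with the same treatment and number in different strains correlated at a mean r of 0.264 (54 pairs, 43 over 0.1, lowest -0.473). Different numbers of the same treatment gave -0.133, but the centring ties this value to the first, so it is no independent comparison. Replicate numbers do not pair arrays across treatments of a strain (mean r 0.031, 14 of 36 pairs over 0.1). With random blocks of treatment and number (the replicate block), 0 genes passed for acute morphine and for chronic morphine against saline over all strains, 7 for chronic against acute morphine, 0 in the F-test of morphine, 0 for chronic against acute morphine in C57BL/6J and 4 in DBA/2J. With number as a fixed block the counts were 3 for acute morphine, 12 for the F-test of morphine, 2 for acute morphine in DBA/2J and 6 for chronic against acute morphine in DBA/2J. Without the filter on low signal they were 0 for acute morphine, 4 for the F-test of morphine, 1 for chronic morphine in C57BL/6J and 0 for chronic against acute morphine in C57BL/6J and in DBA/2J. Median centring gave 0 for acute morphine, and both it and quantile normalization gave 0 for chronic against acute morphine in C57BL/6J; quantile normalization and the intensity trend each gave 1 for acute morphine in DBA/2J, and the trend gave 5 for chronic against acute morphine there.

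Array weights gave 5 for acute morphine, 10 for chronic morphine and 15 for the F-test of morphine over all strains, 1 for chronic morphine and 2 for chronic against acute morphine in C57BL/6J, 13 for acute morphine, 1 for chronic morphine and 27 for chronic against acute morphine in DBA/2J, and 5 for chronic against acute morphine in SWR/J. The 3 arrays of lowest weight were also left out together, an alternative chosen after seeing the data. The counts were then 14 for chronic morphine and 13 for the F-test of morphine over all strains, 7 for chronic morphine and 3 for chronic against acute morphine in C57BL/6J, and 1 for acute morphine and 15 for chronic against acute morphine in DBA/2J. At thresholds of 1% for contrasts and 5% for F-tests they were 0 for acute morphine, 2 for chronic morphine, 14 for the F-test of morphine, and 0 for chronic morphine and chronic against acute morphine in C57BL/6J and for chronic against acute morphine in DBA/2J.

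With 1 array left out at a time the counts ranged from 0 to 2 for acute morphine, 3 to 11 for chronic morphine, 12 to 19 for chronic against acute morphine, 3 to 11 for the F-test of morphine and 5 to 7 for the F-test of strain. Within C57BL/6J they ranged from 0 to 9 for chronic morphine and 0 to 3 for chronic against acute morphine, and within DBA/2J from 0 to 1 for acute morphine and 0 to 7 for chronic against acute morphine. Acute morphine in C57BL/6J, every contrast in 129P3/J and the interaction stayed at 0 under all of these settings. The mean of all detected probe sets reversed the sign for Hspa13 between chronic and acute morphine (0.0517), for Hspa13 in DBA/2J (0.2909), SWR/J (-0.0858), C57BL/6J (-0.1217) and 129P3/J (-0.0835), and for Pdia3 in C57BL/6J (0.1369). Of 57 member results no other changed sign under the 12 alternatives or without any array. The cause of these changes was not tested.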
